A study of Mus musculus with 18 samples.

Results

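The integrins examined here were 10 subunits that macrophages and osteoclasts are known to carry, namely the β chains Itgb1, Itgb2, Itgb3, Itgb5 and Itgb7 and the α chains Itga4, Itgal, Itgam, Itgav and Itgax. They were found by symbol, and the 10 symbols stood on 11 of the 34745 rows of the deposited table, because Itgam was listed under a pair of gene identifiers. All 11 rows passed the filter on low counts. RNA sequencing was done on mouse bone marrow-derived macrophages (BMDMs), cells grown from marrow with the growth factor M-CSF and then given RANKL, the cytokine that turns them into osteoclasts, for 0, 1 or 3 days. There were 18 libraries, 3 in each of 6 groups: cells labelled wild type (WT) and cells labelled Zmat1 knockout (KO), each on days 0, 1 and 3. Donor mice were littermates on a C57BL/6 background and several weeks of age, and all 6 groups had received M-CSF. The knockout was global, so the deletion was not limited to macrophages. The question was how the set of integrin chains changed as BMDMs moved towards osteoclasts, and whether the label changed it.

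An integrin is a heterodimer of an α and a β chain that ties the cytoskeleton to matrix or to another cell. The β2 chain (Itgb2) is found on leukocytes and pairs with αM (Itgam), αX (Itgax), αL (Itgal) or αD (Itgad), receptors for complement fragments, fibrinogen and ICAMs. The αV chain (Itgav) pairs with β3 (Itgb3) in the vitronectin receptor, which osteoclasts use to hold their actin ring and sealing zone on bone, and with β5 (Itgb5) in a second vitronectin receptor. The α4 chain (Itga4) binds VCAM1 and fibronectin with β1 (Itgb1), and VCAM1 and MAdCAM with β7 (Itgb7). Messenger RNA was measured, so the levels of assembled receptors at the cell surface were not.

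Libraries held 13789775 to 17559958 counts. Levels are given as CPM, a gene's count relative to the library size after TMM scaling, which evens out composition between libraries. Zmat1 itself did not separate the labels, at 2.19 to 7.5 CPM over the 9 WT-labelled and 3.49 to 7.61 CPM over the 9 KO-labelled libraries, and whether the counted reads lie in the deleted part was not tested. For that reason the groups are named only by their labels. The summed level of 7 macrophage markers was 2900 to 4090 CPM on day 3 against 9050 to 13400 CPM on day 0, and 6 of 7 fell by day 3 in each label. Of 9 osteoclast markers, 8 rose by day 3 in each label, from sums of 215 to 915 CPM on day 0 to 8150 to 23200 CPM on day 3. Markers of other cells were present too. The sum of 10 stromal and osteoblast markers was 80.4 to 4360 CPM on day 0 and 10100 to 26200 CPM on day 3, that of 9 neutrophil markers was 735 to 12100 CPM on day 0 and 41.8 to 1210 CPM on day 3, and that of 8 T and NK cell markers never passed 2.55 CPM. The labels do not say whether the libraries of a group came from separate animals, so p-values measure the spread between these libraries, which may be technical. In bulk RNA, fewer cells of a type and less RNA per cell cannot be told apart.

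Promoters are shown for 4 subunits: Itgav and Itgb7, higher by day 3 in both labels, Itga4, lower in both, and Itgam, whose first row was lower in both while its summed rows passed only under the WT label, so that the regulatory sequence stands beside the levels. The RefSeq table (GRCm38.p6) held windows for 7 of the 10 symbols, and Itgb3, Itgb2 and Itgal had none. Each window ran from 250 bases before to 50 bases after the start of the gene. The 250 bases before the start are printed 5′ to 3′ on the strand of the gene, and capitals mark exact matches, on either strand, to GAGGAA (PU.1), TGGAAA (NFAT), TGANTCA (AP-1), CATGTG (MITF) or GGGCGG (Sp1). These are motifs of factors with known roles in myeloid cells, in osteoclasts or in promoters at large.
Itgav, chr2:83724147-83724396, plus strand: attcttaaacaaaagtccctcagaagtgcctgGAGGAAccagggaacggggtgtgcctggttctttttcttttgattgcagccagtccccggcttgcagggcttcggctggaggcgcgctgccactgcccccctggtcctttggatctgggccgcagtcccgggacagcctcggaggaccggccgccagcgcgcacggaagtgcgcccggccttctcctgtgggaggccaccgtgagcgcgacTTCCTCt
Itgb7, chr15:102231936-102232185, minus strand: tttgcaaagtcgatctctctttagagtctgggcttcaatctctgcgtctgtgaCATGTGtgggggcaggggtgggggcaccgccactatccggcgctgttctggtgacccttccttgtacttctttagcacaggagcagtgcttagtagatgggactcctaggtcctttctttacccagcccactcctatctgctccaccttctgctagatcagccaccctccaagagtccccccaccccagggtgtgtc
Itgam, chr7:128062390-128062639, plus strand: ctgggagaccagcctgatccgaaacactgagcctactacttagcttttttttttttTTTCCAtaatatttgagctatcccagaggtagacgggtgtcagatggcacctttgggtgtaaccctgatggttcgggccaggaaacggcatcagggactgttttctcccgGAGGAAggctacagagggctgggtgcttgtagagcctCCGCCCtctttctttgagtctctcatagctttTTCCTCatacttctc
Itga4, chr2:79255176-79255425, plus strand: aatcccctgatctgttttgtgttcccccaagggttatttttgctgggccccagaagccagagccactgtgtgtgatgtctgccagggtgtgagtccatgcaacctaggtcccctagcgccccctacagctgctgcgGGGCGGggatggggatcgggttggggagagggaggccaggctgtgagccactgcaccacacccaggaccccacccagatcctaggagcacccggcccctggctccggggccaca
No match overlapped another. In whole windows, Itgam held 3 matches to GAGGAA, Itgav held 2, Itgb7 and Itgb1 held 1 each, and Itga4, Itgb5 and Itgax held none. That is 4 of 7 members' windows, against 28.3% of all 32851 windows of 300 bases. Matches to TGGAAA stood in Itgam and Itgb1 (21.4% of all windows), the match to CATGTG in Itgb7 (14.2%) and the match to TGANTCA in Itgax (7.81%). GGGCGG was found in 5 of 7, all but Itgb7 and Itgax (35.7% of all windows). A match describes the letters only.

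With edgeR's quasi-likelihood test and Benjamini-Hochberg adjustment over 14241 genes, 8 of 11 rows differed between day 3 and day 0 in the WT-labelled libraries, where 50.2% of all genes did, and 8 of 11 in the KO-labelled libraries, where 42.5% of all genes did. Each label gave 4 rows higher and 4 lower. Itgb3, Itgav, Itgb7 and Itgb1 rose in both labels, and Itgal, Itga4 and the first Itgam row fell in both. The eighth call differed, with Itgb5 lower in the WT-labelled and Itgb2 lower in the KO-labelled libraries. The median size of change over the 11 rows was 0.83 (log2) in the WT-labelled and 0.86 in the KO-labelled libraries, against 0.69 and 0.57 over all genes tested. Day 3 and day 0 libraries did not overlap in 9 (WT) and 8 (KO) of 11 rows, and 62.5% and 58.8% of all genes. For days 1 and 0 it was 2 and 3 rows, and 16.5% and 19.1%. For days 3 and 1 it was 7 and 8 rows, and 50.9% and 50.7%. Between the labels it was 1, 2 and 4 rows on days 0, 1 and 3, and 10.1%, 12.6% and 29.2% of all genes. Scaling by total counts in place of TMM moved the median of all genes on day 3 against day 0 from -0.03 to 0.33 (log2) in the WT-labelled and from -0.01 to 0.29 in the KO-labelled libraries. It then left 4 rows higher and 2 lower in the WT-labelled ones, with no share of all genes given here.

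**Figure D1:**
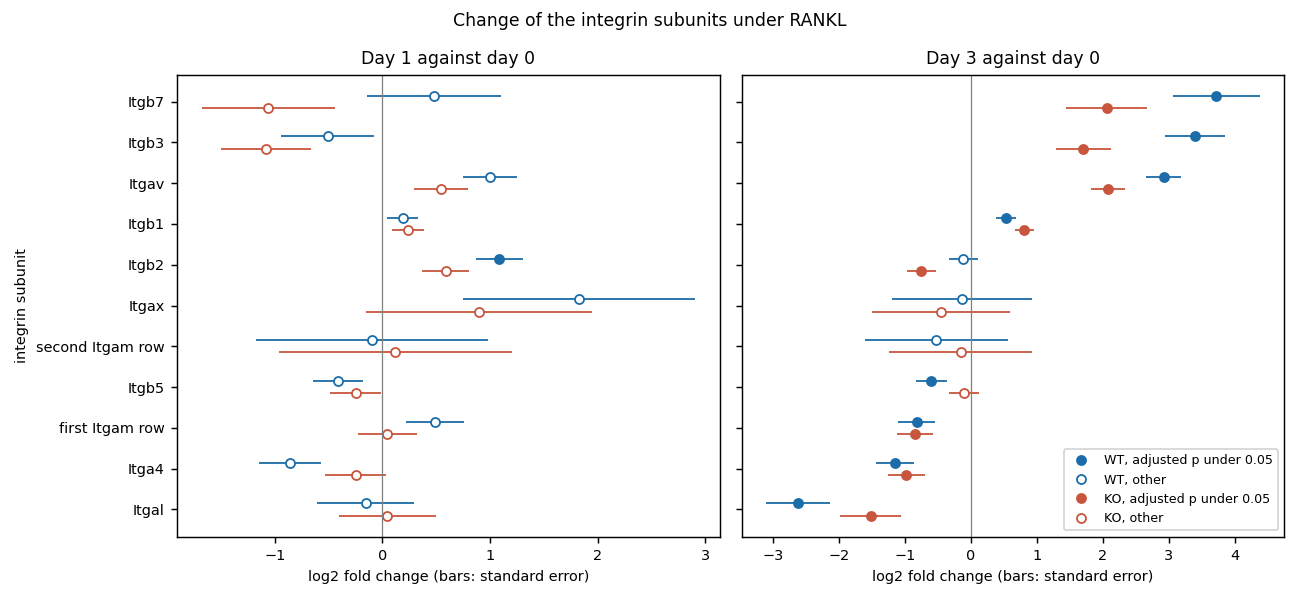
Log2 fold change of each integrin row on day 1 and on day 3 against day 0 (x axis, bars are standard errors), with libraries labelled WT in blue and KO in red, and filled points where the adjusted p was under 0.05. On day 3 Itgb7, Itgb3, Itgav and Itgb1 lie above 0 and Itgal, Itga4 and the first Itgam row below 0 in both labels, while on day 1 the one filled point is Itgb2 in the WT-labelled libraries.

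Itgb3, the β chain of the vitronectin receptor (ENSMUSG00000020689, chr11:104608000-104670476, GRCm38), stood at 20.1, 9.44 and 21.4 CPM in the WT-labelled libraries on day 0, at 7.34, 11.9 and 16.8 CPM on day 1 and at 162.5, 176 and 201 CPM on day 3. The KO-labelled libraries held 48.6, 23.6 and 72.6 CPM on day 0, 15.4, 17.5 and 35.5 CPM on day 1 and 132, 192 and 148 CPM on day 3. Every day 3 library lay above every library of the earlier days. The rise from day 0 to day 3 was 10.6-fold in the WT-labelled libraries (log2 3.40 ± 0.45 SE, n = 3 against 3, edgeR adjusted p = 5.4e-05) and 3.26-fold in the KO-labelled ones (1.71 ± 0.42, adjusted p = 0.00555). Both were called in all 19 alternatives of processing and choice of libraries. The difference between these rises, -1.70 ± 0.59, did not pass (edgeR interaction, adjusted p = 0.91).

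The day 0 levels of Itgb3 did not overlap between the labels, as was so for 10.1% of all genes. The log2 difference there was 1.51 ± 0.43 (KO minus WT, edgeR adjusted p = 0.444). Platelets and megakaryocytes also carry β3, paired with αIIb (Itga2b), and Itga2b stood at 22.6 CPM in the KO-labelled against 5.74 CPM in the WT-labelled day 0 libraries (group means, log2 difference 1.97 ± 0.45, edgeR adjusted p = 0.24). The sum of 8 platelet and megakaryocyte markers was 180, 74.9 and 358 CPM in KO-labelled day 0 libraries 1 to 3, in the same order as their Itgb3. In the WT-labelled ones it was 77.4, 108 and 378 CPM, not in the order of their Itgb3. By day 3 that sum was at most 87.5 CPM while Itgb3 was at its highest. The part of platelet RNA in the day 0 level was not tested.

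Itgav, the α chain that pairs with β3 and β5 (ENSMUSG00000027087, chr2:83724397-83806916), was counted at 21.9, 44.4 and 48.7 CPM on day 0, 99.3, 64 and 66.9 CPM on day 1 and 297, 256.5 and 321 CPM on day 3 under the WT label. Under the KO label it was counted at 41.4, 52.8 and 38.9 CPM, then 73.5, 54.5 and 65.6 CPM, then 166, 213 and 183 CPM. In each label the 3 days did not overlap, and Itgav was already higher in every day 1 library than in any day 0 library. By day 3 it had risen 7.6-fold in the WT-labelled libraries (log2 2.93 ± 0.27, edgeR adjusted p = 4.84e-06) and 4.22-fold in the KO-labelled ones (2.08 ± 0.26, adjusted p = 6.39e-05), in all 19 alternatives. The WT-labelled day 1 difference of 1.00 ± 0.25 missed the threshold (adjusted p = 0.0526). It passed without WT day 0 library 3 (adjusted p = 0.0298) or without the WT day 1 library whose title has a double hyphen (0.0232), and by DESeq2 (0.00704).

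Day 3 Itgav was lower in all 3 KO-labelled than in any WT-labelled library, by 0.64 ± 0.25 on the log2 scale (edgeR adjusted p = 0.389). The labels did not overlap on day 3 in 29.2% of all genes. The sum of stromal and osteoblast markers on day 3 was 10100 to 13100 CPM in the WT-labelled and 18400 to 26200 CPM in the KO-labelled libraries. Fibroblasts and osteoblasts carry αV, β1 and β5 as well, and the part of stromal RNA in the levels of Itgav, Itgb1 and Itgb5 was not tested.

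Itgb5, the other β partner of αV (ENSMUSG00000022817, chr16:33829665-33949153), did not follow Itgb3. Its levels were 296, 302 and 364 CPM on day 0, 166, 226 and 330.5 CPM on day 1 and 209, 258 and 167 CPM on day 3 in the WT-labelled libraries. Those labelled KO gave 377, 337 and 432 CPM, then 288, 322 and 354 CPM, then 310.5, 301 and 451 CPM. Day 3 lay below day 0 in the WT-labelled libraries (log2 -0.60 ± 0.23, edgeR adjusted p = 0.0445), and the KO-labelled days overlapped (-0.11 ± 0.23, adjusted p = 0.728). The WT call was lost in 16 of 19 alternatives, with adjusted p up to 0.352 under total-count scaling, and without any 1 of WT day 0 libraries 1 (0.0754), 2 (0.0816) and 3 (0.14) or of WT day 3 libraries 1 (0.0986) and 3 (0.169). Itgb5 was higher in every KO-labelled than in any WT-labelled library on day 3, when the labels did not overlap in 29.2% of all genes. This log2 difference of 0.75 ± 0.23 did not pass either (edgeR adjusted p = 0.305).

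Itgb7, the β chain that pairs with α4 or αE (ENSMUSG00000001281, chr15:102215995-102231935), had the largest fold change of the 11 rows by day 3 in the WT-labelled libraries. It stood at 6.35, 1.32 and 10.2 CPM on day 0, at 9.92, 11 and 3.83 CPM on day 1 and at 79.8, 45.8 and 110.5 CPM on day 3 there. The KO-labelled levels were 9.41, 5.61 and 19.7 CPM, then 5.19, 3.51 and 7.93 CPM, then 51, 60.9 and 32.7 CPM. All day 3 libraries lay above all earlier ones, by 13.2-fold over day 0 under the WT label (log2 3.72 ± 0.66, edgeR adjusted p = 0.000423) and by 4.16-fold under the KO label (2.06 ± 0.61, adjusted p = 0.0152). The KO-labelled rise was not called without KO day 0 library 1 (adjusted p = 0.0523) or library 2 (0.0602). WT day 0 library 2, the lowest, held 17 counts of Itgb7. The sum of 5 eosinophil markers in day 0 libraries 1 to 3 was 29.4, 4.95 and 37 CPM under the WT label. Under the KO label it was 107, 31.2 and 269 CPM, in both labels in the order of Itgb7. Neutrophil, B cell, and mast cell and basophil sums had the same day 0 order. By day 3 the eosinophil sum was at most 8.67 CPM while Itgb7 was at its highest. The part of such cells in the day 0 level was not tested.

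Itgb1, the β chain shared by fibronectin, collagen and laminin receptors (ENSMUSG00000025809, chr8:128685654-128733200), was abundant throughout and rose least. Libraries labelled WT held 377.5, 349 and 452 CPM on day 0, 463, 422.5 and 456 CPM on day 1 and 539, 633 and 530.2 CPM on day 3, and those labelled KO held 386, 449 and 403 CPM, then 478, 472 and 511 CPM, then 586, 711 and 871 CPM. Day 3 lay above day 0 without overlap in both labels, at 1.45-fold (log2 0.53 ± 0.15, edgeR adjusted p = 0.00833) and 1.75-fold (0.81 ± 0.15, adjusted p = 0.00081), and each call held in 19 of 19 alternatives. From day 1 to day 3 the KO-labelled rise of 0.57 ± 0.15 was called (adjusted p = 0.011), though not without KO day 3 library 3 (0.0529) or without the double-hyphen libraries (0.19), which leaves 1 library on KO day 1.

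Itga4, only 1 of its α partners (ENSMUSG00000027009, chr2:79255426-79333123), went the other way. Among others, Itga5 rose by day 3 in both labels (WT log2 1.72 ± 0.37, edgeR adjusted p = 0.0018, KO 1.55 ± 0.37, 0.00446). Itga6 fell under the WT label (-1.34 ± 0.30, adjusted p = 0.00234) and did not pass under the KO label (-0.72 ± 0.30, 0.0651). The WT-labelled levels of Itga4 were 367, 487 and 229 CPM on day 0, 129, 216 and 253 CPM on day 1 and 179.5, 129.7 and 178 CPM on day 3. The KO-labelled levels were 241.5, 228 and 192 CPM, then 224, 200.4 and 133 CPM, then 129, 105 and 100.5 CPM. On day 3 Itga4 was at 0.45 times its day 0 level under the WT label (log2 -1.15 ± 0.29, edgeR adjusted p = 0.00428) and at 0.506 times under the KO label (-0.98 ± 0.29, adjusted p = 0.0132), with no overlap of days 0 and 3, and in 19 of 19 alternatives each. The WT-labelled day 1 difference of -0.86 ± 0.28 did not pass (adjusted p = 0.109), although it did without WT day 0 library 3 (0.0345) or the double-hyphen WT day 1 library (0.0416). The RNA of β7 rose while that of α4, an α partner of it, fell.

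**Figure D2:**
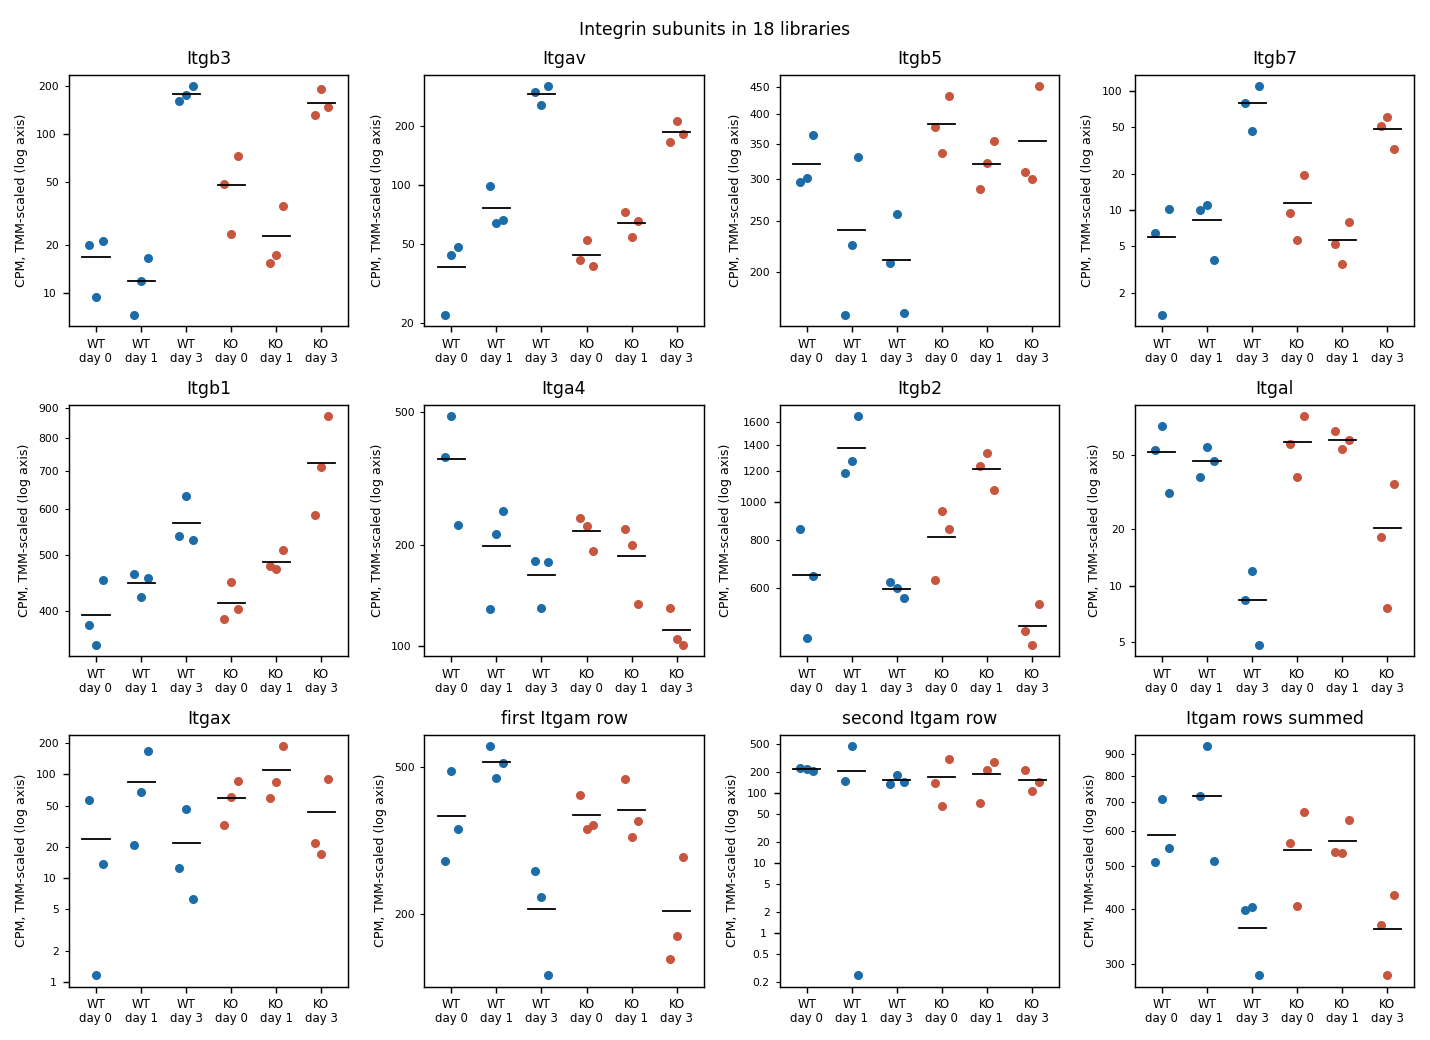
TMM-scaled CPM (log y axis) of each integrin row, and of both Itgam rows summed, in the 3 libraries of each group (points) with the group mean (line), libraries labelled WT in blue and KO in red. Itgb3, Itgav and Itgb7 step up on day 3, Itgal steps down, and Itgb2 has its highest values, 1074 to 1661 CPM, on day 1. Itga4 is lower on day 3 than on day 0 in both labels, and under the WT label its day 3 and day 1 libraries overlap.

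Among the leukocyte integrins, Itgb2 (ENSMUSG00000000290, chr10:77530252-77565708) had its highest levels on day 1. Its levels in the WT-labelled libraries were 852, 445 and 644 CPM on day 0, 1186, 1274 and 1661 CPM on day 1 and 621, 601 and 565 CPM on day 3. Those in the KO-labelled libraries were 630, 947 and 853 CPM, then 1239, 1337 and 1074 CPM, then 465, 429 and 546 CPM. Day 1 was the highest day in both labels, without overlap with either other day. The WT-labelled rise by day 1 was 2.12-fold (log2 1.09 ± 0.22, edgeR adjusted p = 0.0381) and was the only call among the 11 rows on that day. It was lost without WT day 0 library 2 (adjusted p = 0.131), WT day 1 library 1 (0.16) or WT day 1 library 2 (0.0693), in a fit of the compared libraries alone (0.452) and with the replicate number as a block (0.0582). The KO-labelled day 1 difference was 0.59 ± 0.22 (adjusted p = 0.383).

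The fall of Itgb2 from day 1 to day 3 was called in both labels, by -1.21 ± 0.22 (edgeR adjusted p = 0.00132) and -1.34 ± 0.22 (adjusted p = 0.000823), in 19 of 19 alternatives each. Against day 0, the KO-labelled day 3 level was lower (log2 -0.76 ± 0.22, adjusted p = 0.0136), but not without KO day 0 library 2 (0.0655) or KO day 3 library 2 (0.0581). The WT-labelled day 3 and day 0 levels overlapped (log2 -0.12 ± 0.22, adjusted p = 0.662, with a positive sign in 6 of 19 alternatives, total-count scaling and the FPKM fits among them). Neutrophils also carry β2, and their marker sum was 735 to 3130 CPM in the WT-labelled day 0 libraries, 398 to 2280 CPM on day 1 and 41.8 to 75 CPM on day 3, and 3790 to 12100, 1500 to 3300 and 105 to 1210 CPM in the KO-labelled ones, so its day 1 sums lay within or below those of day 0. Its part in the β2 family levels was not tested.

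Itgam, the αM chain known as the macrophage marker CD11b, was listed on a pair of overlapping rows. The first was ENSMUSG00000030786 (chr7:128062640-128118491) and the second ENSMUSG00000108596 (chr7:128062683-128128160), which the GENCODE vM21 annotation names Gm49368. The second row took 0.0487% of the reads of both rows in the double-hyphen WT day 1 library, where it held 3 counts, and 13.7 to 58.5% in the other libraries. There it held 65.4 to 469 CPM. How reads were shared out between the rows is not given in the sources used here, so each row alone is uncertain.

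The first row held 278, 486 and 339 CPM on day 0, 568, 466 and 513 CPM on day 1 and 262, 222 and 137 CPM on day 3 under the WT label, and 421, 339.8 and 348, then 463, 323.5 and 357, then 152, 175 and 286 CPM under the KO label. With the rows summed, the WT-labelled levels were 509, 709 and 549 CPM, then 719, 935 and 513.5 CPM, then 398, 402.5 and 282 CPM. The KO-labelled sums were 563, 405 and 661 CPM, then 537, 536 and 636 CPM, then 366, 282.5 and 429.7 CPM. Day 3 sums lay below day 0 sums without overlap under the WT label and overlapped in the KO label.

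The first row fell by 0.83 ± 0.28 on the log2 scale under the WT label (edgeR adjusted p = 0.022) and by 0.86 ± 0.28 under the KO label (adjusted p = 0.0222). Summed, Itgam fell by 0.71 ± 0.24 under the WT label (adjusted p = 0.026), and the KO-labelled difference of -0.60 ± 0.24 no longer passed (adjusted p = 0.0602). The fall of the first row was lost under total-count scaling in both labels (adjusted p = 0.162 and 0.103), without WT day 0 library 2 (adjusted p = 0.136) or WT day 3 library 3 (0.1), and under the KO label without KO day 0 library 1 (0.0764) or KO day 3 libraries 1 (0.0928) or 2 (0.0839). Between days 1 and 3 the summed rows fell by 1.00 ± 0.24 under the WT label (adjusted p = 0.00689), and the KO-labelled difference was -0.66 ± 0.24 (adjusted p = 0.054). The first row alone was called lower over those days in both labels (-0.90 ± 0.28 under the KO label, adjusted p = 0.0251), under the KO label not without KO day 1 library 1 (0.117) or KO day 3 libraries 1 (0.103) or 2 (0.1), nor without the double-hyphen libraries (0.251).

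**Figure D3:**
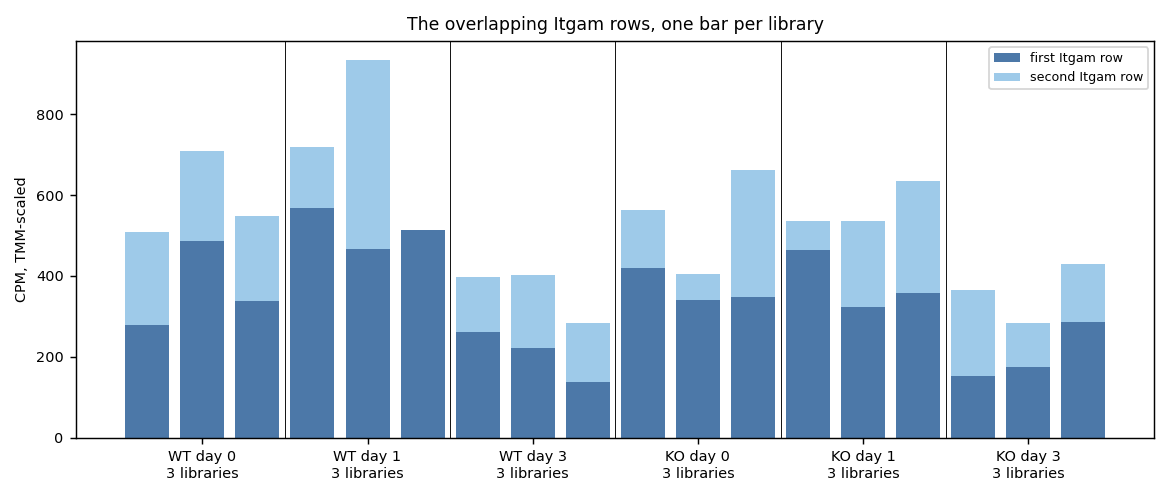
TMM-scaled CPM of the overlapping Itgam rows (y axis), stacked, with a bar for each of the 18 libraries in the order WT then KO by day. The lighter part, the second row, is all but absent in the double-hyphen WT day 1 library, where the rows sum to 513.5 CPM, and the full WT-labelled bars on day 3, 282 to 402.5 CPM, are shorter than those of days 0 and 1.

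Itgal, the αL chain of a receptor for ICAMs (ENSMUSG00000030830, chr7:127296260-127335138), had the largest fall of the 11 rows by day 3 in each label. Under the WT label it stood at 53, 70.7 and 31.1 CPM on day 0, 38, 54.8 and 46.3 CPM on day 1 and 8.36, 11.9 and 4.83 CPM on day 3. Under the KO label it stood at 56.8, 37.8 and 80.2 CPM, then 67.1, 53.6 and 59.5 CPM, then 18.2, 7.59 and 34.8 CPM. All day 3 libraries lay below those of days 0 and 1 of their label, and day 1 overlapped day 0. The day 3 level was 0.162 times that of day 0 under the WT label (log2 -2.62 ± 0.48, edgeR adjusted p = 0.000571, in 19 of 19 alternatives) and 0.347 times under the KO label (-1.53 ± 0.46, adjusted p = 0.0167), where the call was lost in a fit of the compared libraries alone (0.0562) and without KO day 0 library 3 (0.0745) or KO day 3 libraries 1 (0.055) or 2 (0.057). On day 3 the neutrophil marker sums of libraries 1 to 3 were 365, 105 and 1210 CPM under the KO label, in the order of their Itgal, and 75, 41.8 and 51.3 CPM under the WT label, where the library highest in Itgal was the lowest in these markers. The part of neutrophil RNA in it was not tested.

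Itgax, the αX chain also known as CD11c (ENSMUSG00000030789, chr7:128129547-128150657), varied more between libraries than between days. Levels were 57.1, 1.16 and 13.7 CPM on day 0, 20.8, 67.1 and 167 CPM on day 1 and 12.5, 46.6 and 6.23 CPM on day 3 in the WT-labelled libraries. The KO-labelled ones gave 32.3, 60.1 and 85.8 CPM, then 59.1, 85.1 and 187 CPM, then 22, 17 and 90.6 CPM. Days overlapped in each label, and no comparison passed, with standard errors of 1.04 to 1.09 (log2) between pairs of groups. The WT-labelled day 3 difference of -0.14 ± 1.06 (edgeR adjusted p = 0.922) changed sign in 9 of 19 alternatives. The other differences between days kept their sign in 19 of 19 each, among them the WT-labelled 1.82 ± 1.08 on day 1 against day 0 and -1.96 ± 1.09 on day 3 against day 1, and were called in none.

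More rows were called between days 1 and 3 than between days 0 and 1. Against day 0, day 1 gave 1 of 11 rows called under the WT label (2.35% of all genes) and 0 of 11 under the KO label (0.0211% of all genes). At an unadjusted p under 0.05 there were 3 rows in each, with no count over all genes at that threshold. DESeq2 called 3 and 0 rows, and its share of all genes is not given here. Between day 1 and day 3 edgeR called 6 of 11 rows under the WT label (32.0% of all genes) and 7 of 11 under the KO label (28.0% of all genes). Itgb3 rose 15-fold in the WT-labelled (log2 3.91 ± 0.47, edgeR adjusted p = 7.5e-05) and 6.91-fold in the KO-labelled libraries (2.79 ± 0.44, adjusted p = 0.000638) over these 2 days. Itgb7 rose by 3.24 ± 0.64 (adjusted p = 0.00205) and 3.12 ± 0.64 (0.00313), and Itgav by 1.93 ± 0.26 (0.00017) and 1.54 ± 0.25 (0.000821). Itgal fell by 2.47 ± 0.48 (adjusted p = 0.00191) and 1.57 ± 0.46 (0.0212), the latter not called without KO day 1 library 1 (0.0695) or KO day 3 libraries 1 (0.0687) or 2 (0.0739). With the double-hyphen libraries left out, and so 1 library on KO day 1, the KO-labelled differences of Itgal (adjusted p = 0.199) and Itgb7 (0.123) did not pass. Between days 0 and 1 Itgb3 differed by -0.51 ± 0.43 in the WT-labelled and -1.08 ± 0.42 in the KO-labelled libraries, with overlap of the days in both and no call (edgeR adjusted p = 0.54 and 0.411).

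Between the labels on the same day, 0 of 11 rows were called on any day. On day 0, 0.119% of all genes were called, on day 1 0.112% and on day 3 0.140%. An unadjusted p under 0.05 was reached by 2, 1 and 4 of the 11 rows. The share of all genes at that looser threshold was not counted in any comparison, so such counts have no baseline. DESeq2 also called 0 on each day. Besides Itgb5 and Itgav, an unadjusted p under 0.05 on day 3 was reached by Itgal at 1.27 ± 0.47 (KO minus WT, log2, edgeR adjusted p = 0.365) and Itgb1 at 0.35 ± 0.15 (adjusted p = 0.423). For Itgb3 on day 3 it was -0.19 ± 0.41 (adjusted p = 0.894), and for the summed Itgam rows -0.01 ± 0.24 (adjusted p = 0.995). The test of whether the change from day 0 to day 3 differed by label gave 0 of 11 rows and 0% of all genes by edgeR, 2 of 11 at an unadjusted p under 0.05, and 0 by DESeq2. There the point estimates were -1.70 ± 0.59 for Itgb3, -1.67 ± 0.85 for Itgb7 and -0.85 ± 0.35 for Itgav (adjusted p = 0.91, 0.911 and 0.91).

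Levels of different genes were set side by side only on the deposited FPKM scale, which is per transcript length. Itgb2 ranked first of the 11 rows on day 0 under both labels, at 125.5 ± 34 and 161 ± 25.9 FPKM (mean ± SD, n = 3), above every other row in each library. Itgb5 and Itgb1 came next with overlapping ranges, at 63.6 ± 10.1 and 63.4 ± 10.7 FPKM under the WT label, and then both Itgam rows. Summed, the Itgam rows stood at 85 ± 16.1 FPKM under the WT label, above Itgb5 and Itgb1 in each library. In WT day 0 library 2 their sum of 102.3 FPKM was also above Itgb2 at 89.06 FPKM. Under the KO label the sum was 79.2 ± 26.5 FPKM and overlapped Itgb5 and Itgb1. Itgav, Itgb7 and Itgb3 had the lowest 3 means in the WT-labelled day 0 libraries, at 2.57 ± 1.06, 1.94 ± 1.5 and 1.79 ± 0.69 FPKM, and did not separate from one another. On day 3 Itgb7, Itgav and Itgb3 had moved up to 33.3 ± 14.4, 24.8 ± 3.36 and 24.5 ± 3.16 FPKM, again with overlapping ranges, and Itgal had the lowest mean at 1.03 ± 0.418 FPKM, its range overlapping that of Itgax. Under the KO label Itgb1 (145 ± 22.9 FPKM) was above Itgb2 (117 ± 10.4 FPKM) in all 3 day 3 libraries, though the ranges overlapped.

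As a share of the summed FPKM of the 5 β chains, Itgb2 took 48.5 ± 7.82% on day 0, 68.4 ± 1.11% on day 1 and 39.6 ± 1.64% on day 3 in the WT-labelled libraries (mean ± SD, n = 3). Itgb3 took 0.679 ± 0.172%, 0.316 ± 0.0802% and 6.46 ± 0.838%. In the KO-labelled libraries Itgb2 took 50.9 ± 5.25%, 61.8 ± 4.24% and 30.1 ± 2.4%, and Itgb3 1.66 ± 0.807%, 0.634 ± 0.331% and 5.38 ± 1.29%. Among the examined α chains, Itgav went from 2.2 ± 0.952% on day 0 to 22.7 ± 4.96% on day 3 under the WT label. Under the KO label it went from 2.87 ± 1.12% to 15.9 ± 5.1%. On day 3 the Itgam rows still made up 30.1 ± 7.02% and 30.9 ± 4.16% of the examined α chains in the WT-labelled libraries. Other α chains were left out of this sum, among them Itga5, Itga6 and Itga11. Their WT-labelled day 3 means were 262, 108 and 78.3 CPM, so these are not shares of all α chains. Per library, the ratio of Itgb3 to Itgb2 was 0.0114 to 0.018 on day 0 and 0.141 to 0.192 on day 3 under the WT label, and 0.0135 to 0.046 and 0.146 to 0.242 under the KO label. These ratios and shares are descriptions, with no test.

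**Figure D4:**
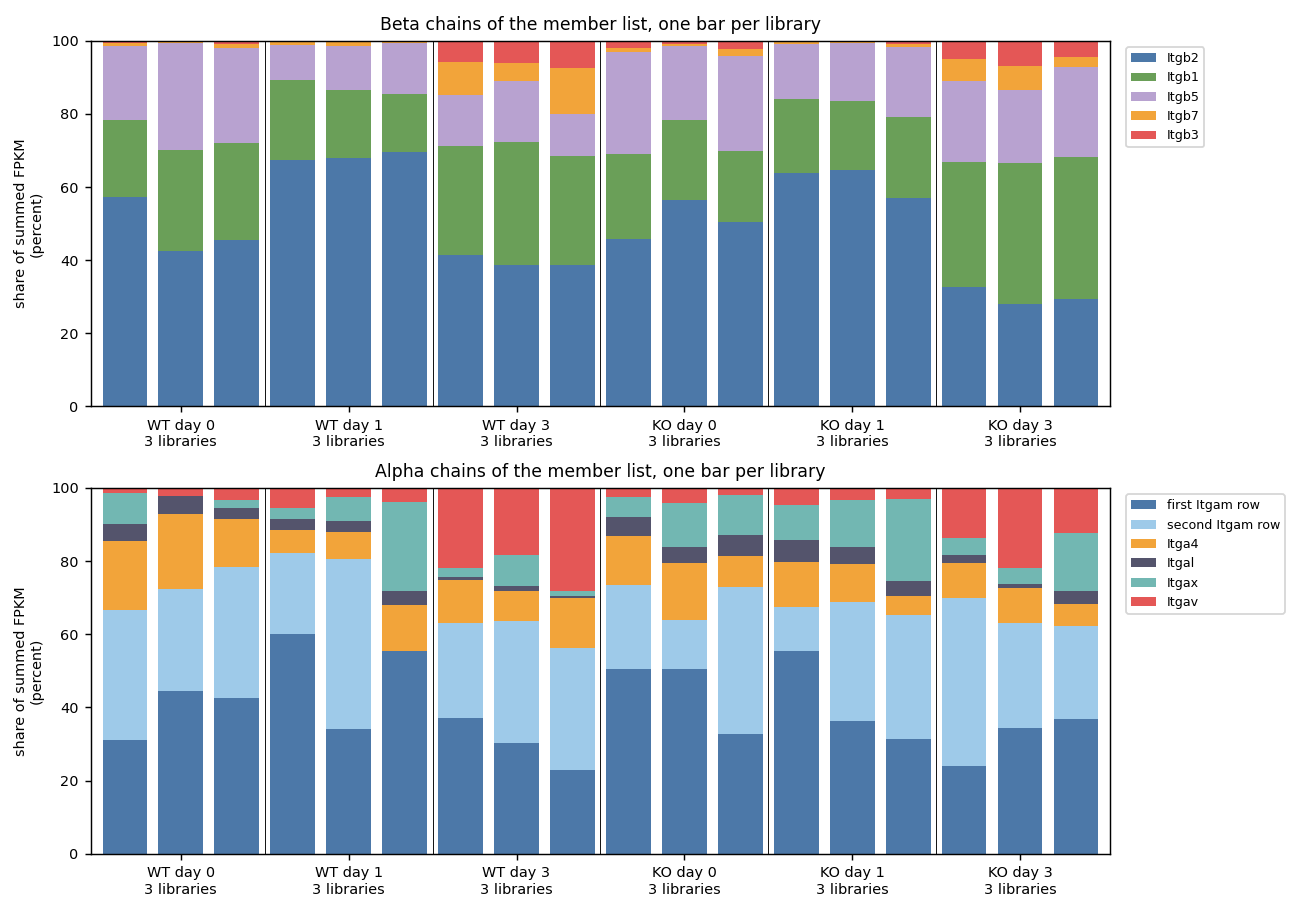
Share (percent, y axis) of each β chain (upper) and α chain (lower) in the summed FPKM of the examined chains of its kind. There is a bar per library, grouped by label and day. Integrin chains that were not examined are left out of the sums, Itga5 and Itga6 among them. Itgav takes 18.2 to 28.1% of the α chains in the WT-labelled and 12.4 to 21.8% in the KO-labelled day 3 libraries, and on day 1 Itgb2 takes 67.5 to 69.6% of the β chains in the WT-labelled and 56.9 to 64.7% in the KO-labelled libraries.

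Among the genes whose levels were most like Itgb3 over the 18 libraries, by Pearson's r of log2 CPM among 12866 genes, were Proser2 (r = 0.973), Pip5k1b (0.971), Rhof (0.957) and Gfod1 (0.955). Pip5k1b, a phosphatidylinositol phosphate kinase, went from 0.827 to 26.5 CPM (WT-labelled means, day 0 and day 3), and Rhof, a small GTPase of filopodia, from 2.04 to 25.4 CPM. For the first Itgam row they included Glb1l (r = 0.927), Ftl1 (0.9), Cbr3 (0.887) and Phactr4 (0.886), with Ftl1, the ferritin light chain, going from 11110 to 4298 CPM. The libraries share their day and label, and r has no test here. No integrin was among these genes.

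Of 16 other integrin subunits 14 were tested, and 7 rose and 3 fell by day 3 under the WT label, 8 and 2 under the KO label, with a median log2 change of 1.21 and 1.61 against -0.03 and -0.01 over all genes tested, of which 50.2% and 42.5% were called. Itga2, the α chain of a collagen receptor, rose from 0.552 to 28.2 CPM under the WT label (log2 5.61 ± 0.86, edgeR adjusted p = 0.000146) and from 0.945 to 17.1 CPM under the KO label (4.16 ± 0.8, adjusted p = 0.00112). Itgae, the other α partner of β7, rose too, from 0.0774 to 1.63 CPM (4.26 ± 1, adjusted p = 0.00301) and from 0.0718 to 0.747 CPM (3.21 ± 1.02, 0.0207). Itgad, the remaining partner of β2, fell by 3.70 ± 0.81 (adjusted p = 0.00194) and 2.72 ± 0.76 (0.0106), and Itga2b differed by -1.80 ± 0.47 (0.00554) and -2.49 ± 0.46 (0.000845). Itga11, a collagen receptor chain of fibroblasts, rose from 7.01 to 78.3 CPM and from 11.2 to 221.5 CPM beside the stromal markers.

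**Figure D5:**
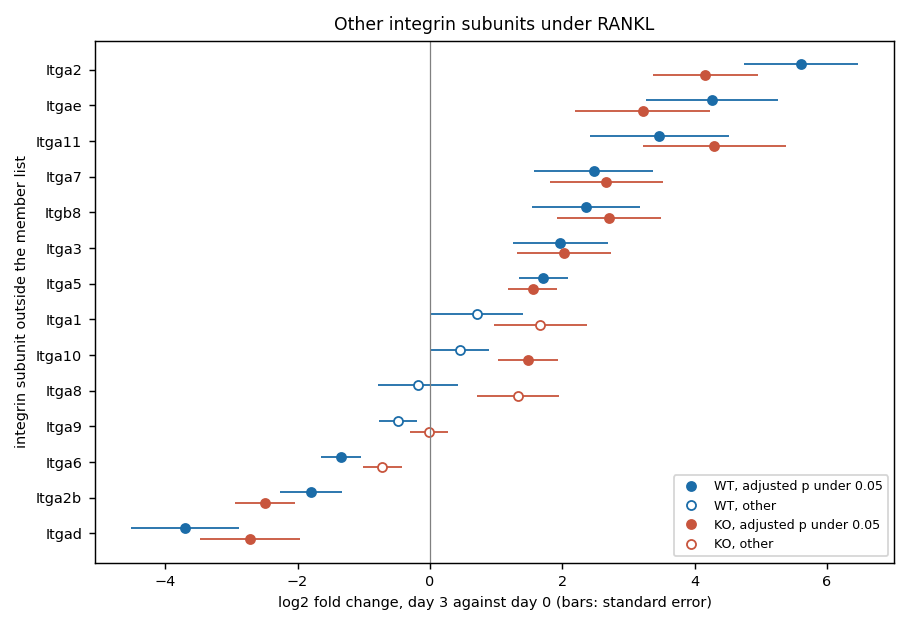
Log2 fold change of the 14 tested integrin subunits outside the 10 symbols, day 3 against day 0 (x axis, bars are standard errors), with libraries labelled WT in blue and KO in red and filled points where the adjusted p was under 0.05. Itga2 has the largest rise under the WT label (5.61) and Itgad the largest fall (-3.70).

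Of 20 ligands of these receptors 17 were tested, and 5 rose and 3 fell under the WT label and 7 and 3 under the KO label by day 3 (median log2 change 1.28 and 1.70, against -0.03 and -0.01 over all genes tested). That is 8 and 10 of 17 called, where 50.2% and 42.5% of all genes were. Fn1, fibronectin, rose by 3.52 ± 0.84 under the WT label (edgeR adjusted p = 0.00351) and by 3.81 ± 0.86 under the KO label (0.0031), and Fbn1, fibrillin, by 3.03 ± 0.95 (0.0167) and 3.29 ± 0.96 (0.0139). Both are matrix proteins of stromal cells, and 5 and 8 of the 10 stromal and osteoblast markers were called higher over the same days. Their part in the ligand levels was not tested. Vcam1, the ligand of α4 integrins, fell by 2.51 ± 0.48 (adjusted p = 0.000688) and 2.20 ± 0.47 (0.00221). Icam2, a ligand of αL, fell by 1.65 ± 0.31 (adjusted p = 0.000572) and 0.85 ± 0.29 (0.0307). Its levels were low, at 5.225 and 1.654 CPM under the WT label and 6.517 and 3.608 CPM under the KO label. Icam1 was more abundant, at 101.9 and 67.85 CPM and at 87.61 and 54.66 CPM. It was not called in either label (edgeR adjusted p = 0.12 and 0.0844). Vtn, vitronectin itself, was not tested, at group means of at most 0.048 CPM on days 0 and 3. Spp1, osteopontin, was abundant on both days, at 1587 and 2934 CPM under the WT label (0.89 ± 0.38, adjusted p = 0.0625) and was called higher, at 1639 and 3297 CPM, under the KO label (edgeR adjusted p = 0.0435). Icam1, Vtn, Spp1 and, among the subunits, Itga5, Itga6 and Itga11 lie outside the rule for named genes and were chosen after their values were seen.

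The next list held 16 genes that act on integrin activation from inside the cell, not all of them activators. Under the WT label 2 rose and 7 fell, and under the KO label 4 rose and 9 fell (median log2 change -0.35 and -0.63). Over all genes tested, 3370 rose and 3773 fell under the WT label (50.2% called) and 2873 rose and 3173 fell under the KO label (42.5%). The WT-labelled median is about as far from 0 as the median of all genes moves with total-count scaling, under which the list was not refitted, so its sign is not settled. Rapgef1, an exchange factor for RAP1, rose by 1.69 ± 0.14 (edgeR adjusted p = 2.05e-06) and 1.32 ± 0.13 (1.79e-05), and Flna, filamin, which binds β tails, by 1.24 ± 0.27 (0.0018) and 1.07 ± 0.27 (0.00597). Rasgrp2, the exchange factor of leukocytes and platelets, fell by 2.65 ± 0.52 (adjusted p = 0.00084) and 2.31 ± 0.5 (0.00251), and the adaptor Fyb by 2.01 ± 0.22 (1.7e-05) and 1.72 ± 0.22 (7.78e-05). Of 28 genes that signal from bound integrins, 8 rose and 9 fell in each label, where 50.2% and 42.5% of all genes were called, with a median of -0.03 and -0.15. Src, the kinase that acts below αVβ3 in osteoclasts, rose from 11 to 216 CPM under the WT label (4.30 ± 0.42, adjusted p = 7.55e-06) and by 2.92 ± 0.4 under the KO label (0.00011), and Vcl, vinculin of adhesion sites, by 2.28 ± 0.48 (0.00146) and 2.02 ± 0.48 (0.00416). Zyx, zyxin, fell by 1.89 ± 0.35 (adjusted p = 0.000541) and 1.37 ± 0.34 (0.00579).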

How the data were processed

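RNA from mouse BMDMs was purified on columns and sequenced after SMARTer amplification. The authors deposited whole-number counts and FPKM values per gene in 1 table, and the FPKM values came from StringTie and Ballgown per the study's methods. The submitters' processing notes name GRCm38.p4 and mm10. The aligner and counter, and whether strand was used, are not given in the sources used here. Libraries held 13789775 to 17559958 counts, and intervals cover the spread between libraries only.

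Groups came from the labels. Counts were filtered with edgeR's filterByExpr, scaled by TMM and fitted over all 18 libraries and 6 groups with edgeR 4.0.16 (R 4.3.3) by its quasi-likelihood test, with Benjamini-Hochberg adjustment over 14241 genes and a threshold of 0.05. The standard error given with each edgeR log2 change was derived from the test, as the size of the change over the square root of its F statistic. DESeq2 1.42.0 and limma 3.58.1 on log2(FPKM + 1) or log2(FPKM + 0.1) were alternatives. The fits were run on simulated counts with known changes, drawn independently for each library. That simulation held no effect of title style, pairing or cell mixture, so it says nothing about these. The named genes were all members, the 5 genes most correlated with Itgb3 and with Itgam, and of each list the 2 largest called rises and 2 largest called falls in the WT-labelled day 3 against day 0 comparison. Some genes that this rule names are not reported here. Other alternatives were scaling by total counts or DESeq2 size factors, no filter or at least 5 CPM in 3 libraries, title style as a covariate, the compared libraries alone, and leaving out each library. The members and lists were chosen with earlier results of these data known. Alternatives without the double-hyphen libraries and with the Itgam rows summed were chosen after seeing the data. The double-hyphen titles belong to WT day 0 library 1, a WT day 1 library, KO day 0 library 2 and KO day 1 libraries 1 and 2. No day 3 library has such a title. Title style is therefore partly confounded with every comparison of day 3 with an earlier day. Same-numbered libraries deviated together (correlation over 0.1) in 3 of 3 pairs for KO days 0 and 3 (0.13 to 0.398) and for KO days 1 and 3 (0.156 to 0.34), so the numbers were taken to pair these, and a replicate block was fitted as an alternative.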

Additional observations from a re-analysis of the deposited data

How the results depend on the processing

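Directions of the called day 3 changes were the same in every alternative run, and no called value reversed. The count of 1 row called on day 1 against day 0 under the WT label was the least settled. It was 3 by DESeq2, 2 under a stricter filter, 2 with title style as a covariate, 2 without the double-hyphen libraries, 0 with the compared libraries alone, and 0 to 3 with 1 library left out. With the replicate block it was 0, also 0 with the block within label, Itgb2 then having adjusted p of 0.0582 and 0.0854. The WT day 1 titles give number 1 to 2 libraries and number 3 to none, so these blocks are unbalanced there. The 7 rows called between days 1 and 3 under the KO label became 3 without the double-hyphen libraries, a fit that leaves 1 KO day 1 library, assumed to vary like the other groups, and 5 to 8 with 1 library left out. The counts of 8 for day 3 against day 0 became 6 to 8 under the WT label and 5 to 8 under the KO label with 1 library left out, the 5 without KO day 3 library 2, and the 6 called between days 1 and 3 under the WT label were 6 each time. With the replicate block the counts were 7 and 8 for day 3 against day 0 and 6 and 7 for day 3 against day 1 (WT, KO). In the WT-labelled groups the numbers pair no set of libraries in all pairs (days 0 and 3, 1 of 3 pairs over 0.1), nor for KO days 0 and 1 (2 of 3). WT day 0 library 1 has a double-hyphen title. Its deviations correlated at 0.604 with those of the double-hyphen WT day 1 library and at -0.464 with those of WT day 1 library 1. Library 2 of WT days 0 and 1 gave 0.138. Whether title style accounts for these values was not tested. Total-count scaling gave 6 rows (4 higher, 2 lower) under the WT label and 7 (4 higher, 3 lower) under the KO label for day 3 against day 0. The cause of these changes was not tested. The share of all genes called in each alternative is not given here, so the counts of rows called under the alternatives have no baseline. The lowest counts were 3 for the second Itgam row in the double-hyphen WT day 1 library and 17 and 15 for Itgb7 and Itgax in WT day 0 library 2.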
